A study of Mus musculus with 6 samples.

Results

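The 10 genes described here encode secreted immune signals that cultured muscle precursor cells can make, namely the chemokines *Ccl2*, *Ccl7*, *Cxcl1*, *Cxcl5* and *Cxcl12* and the cytokines *Il6*, *Lif*, *Csf1*, *Il33* and *Tnf*. They were taken by gene name from the deposited table of 55416 genes, where each name had 1 row, so all 10 were found. The question was how much of each transcript satellite cells (SCs) contain in culture and whether the loss of lactoferrin (*Ltf*) changes it. RNA was sequenced from SCs of adult wild-type (WT) mice and of *Ltf*-KO mice, with 3 libraries in each group. In the *Ltf*-KO mice a stretch of the gene was removed from the whole animal by CRISPR-Cas9 in C57/BL6N zygotes. SCs of both groups were sorted from collagenase-digested hind leg muscle as Sca1-/CD11b-/CD34+/α7-integrin+ cells, and all were harvested on day 4 of growth on Matrigel in serum, chick embryo extract and basic fibroblast growth factor, with no other treatment. The labels do not say whether the 3 libraries of a group came from separate mice, so p-values measure the spread between these libraries, which may be technical. *Ltf* was listed in WT at 0.12, 0.02 and 0.02 TPM, against 0.02, 0.03 and 0 TPM in *Ltf*-KO SCs, so its level does not check the genotype labels.

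Chemokines are small secreted proteins that guide the movement of leukocytes through receptors on the cell surface. After muscle injury, monocytes and neutrophils enter the tissue along such signals, and macrophages then act on SCs and on the cells around them. CCL2 and CCL7 attract monocytes through CCR2, CXCL1 and CXCL5 attract neutrophils through CXCR2, and CXCL12 acts through CXCR4 and is scavenged by ACKR3. IL-6 and LIF both signal through gp130 and STAT3, CSF1 sustains macrophages through CSF1R, IL-33 is an alarmin of the receptor ST2, and TNF activates NF-κB.

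The values are in TPM, a length-corrected unit of transcript abundance in which the reads of a gene are divided by its length and every library is scaled to about the same total, so levels may be compared between genes. The columns summed to between 993650 and 994356 TPM, and read depth is not known from them. Genes at 1 TPM or more numbered 12828 to 12951 per library. The cells carried the myogenic markers that their label implies. *Myod1*, the myogenic determination factor, was at 748 to 816 TPM, *Pax7*, the SC transcription factor, at 36.6 to 43.3 TPM, and *Itga7*, the α7-integrin of the sort, at 371 to 416 TPM. Of the other sort markers, *Cd34* was at 4.41 to 6.20 TPM and *Itgam*, which encodes CD11b, at 0 to 0.07 TPM, while *Ly6a*, which encodes Sca1, had a mean of 2.05 TPM. The 9 myogenic markers summed to 2748 to 2949 TPM in WT and to 2770 to 3096 TPM in *Ltf*-KO SCs.

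*Csf1* and *Cxcl12* had the highest levels, and *Il6* and *Cxcl1* were among the genes listed under 1 TPM on average. For these 4 genes the stretch of 250 bases before the RefSeq transcription start is printed. All are written 5′ to 3′ on the strand of the gene and come from RefSeq on GRCm38.p6. Their positions are chr3:107760470-107760719 (minus strand) for *Csf1*, chr6:117168285-117168534 (plus strand) for *Cxcl12*, chr5:30012864-30013113 (plus strand) for *Il6* and chr5:90890995-90891244 (plus strand) for *Cxcl1*. Capitals mark matches, on either strand, to the NF-κB consensus, the AP-1 motif TGANTCA and the GC box GGGCGG.
Csf1: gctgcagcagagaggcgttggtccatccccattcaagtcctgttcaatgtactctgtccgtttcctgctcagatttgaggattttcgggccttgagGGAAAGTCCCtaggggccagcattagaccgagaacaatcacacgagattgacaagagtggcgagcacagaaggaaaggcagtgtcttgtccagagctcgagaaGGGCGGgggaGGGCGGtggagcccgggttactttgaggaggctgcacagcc
Cxcl12: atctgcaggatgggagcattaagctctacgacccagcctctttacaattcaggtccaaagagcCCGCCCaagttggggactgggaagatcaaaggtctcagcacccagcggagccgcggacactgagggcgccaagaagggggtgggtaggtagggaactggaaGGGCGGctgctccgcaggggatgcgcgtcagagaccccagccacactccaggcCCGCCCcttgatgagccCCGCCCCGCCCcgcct
Il6: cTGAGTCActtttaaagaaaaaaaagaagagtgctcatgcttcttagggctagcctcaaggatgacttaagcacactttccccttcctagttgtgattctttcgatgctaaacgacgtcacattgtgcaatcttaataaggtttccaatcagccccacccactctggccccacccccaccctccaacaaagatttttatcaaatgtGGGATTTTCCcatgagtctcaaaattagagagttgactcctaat
Cxcl1: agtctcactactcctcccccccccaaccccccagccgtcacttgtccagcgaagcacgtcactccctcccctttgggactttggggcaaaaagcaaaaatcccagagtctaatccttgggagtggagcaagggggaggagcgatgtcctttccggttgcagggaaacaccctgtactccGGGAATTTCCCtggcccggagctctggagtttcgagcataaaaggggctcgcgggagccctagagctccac

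The *Csf1* stretch held 1 match to the NF-κB consensus and 2 GC boxes, and that of *Cxcl12* held 5 GC boxes, the last 2 of them sharing 1 base. In *Il6* there were 1 match to the NF-κB consensus and 1 to TGANTCA. In *Cxcl1* there were 2 NF-κB matches, 1 on each strand, which overlap. RefSeq promoters of 300 bases, with 50 bases after the start, matched 7 of the 10 genes. For *Ccl2*, *Ccl7* and *Cxcl5* there was no such promoter, so these genes were not scanned for the motifs. The NF-κB consensus was present in 4 of the 7 (*Cxcl1*, *Il6*, *Lif* and *Csf1*) and in 8.49% of all 32544 promoters of this length. *Tnf*, also under 1 TPM on average, had 0 such matches and is not printed. TGANTCA was present in 2 of the 7 (*Il6* and *Lif*) and in 7.79% of all, and GGGCGG in 3 of the 7 (*Cxcl12*, *Csf1* and *Tnf*) and in 35.9% of all. The TATA box TATAAA was present in 2 of the 7 (*Il33* and *Tnf*), neither of them printed, and in 13.6% of all. These matches are letters in a window and do not measure binding. Matches to the NF-κB consensus and to GGGCGG occurred both in genes at the top and in genes at the bottom of the range of levels. Those to TGANTCA and TATAAA were not found in *Csf1* or *Cxcl12*, the genes at the top.

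The transcripts spanned a wide range, with *Csf1* at the top and *Tnf* and *Cxcl5* at the bottom. *Csf1*, on chromosome 3 of GRCm38 from 107741048 to 107760469, had a mean of 496 TPM over the 6 libraries, above 97.8% of the 12956 genes whose mean reached 1 TPM. *Cxcl12*, on chromosome 6 from 117168535 to 117181367, had a mean of 171 TPM, above 93.9% of those genes. The mean of *Csf1* was 2.90 times that of *Cxcl12*, which in turn was 12.7 times that of *Ccl2*, the next in order. Neither pair overlapped in any library. Together *Csf1* and *Cxcl12* made up 95.1% to 97.5% of the summed TPM of the 10 genes in each library. *Ccl2* (13.5 TPM), *Lif* (5.25 TPM), *Ccl7* (3.51 TPM) and *Il33* (1.35 TPM) followed, and *Cxcl1*, *Il6*, *Cxcl5* and *Tnf* had means under 1 TPM. Of these *Cxcl1*, at 0.753 TPM, came closest to the filter at 1 TPM used for testing, with *Il33* just inside it. In this order each of *Ccl2*, *Lif*, *Ccl7* and *Il33* was above the next gene in 6 of 6 libraries, although their ranges over the libraries overlapped. *Cxcl1* was above *Il6* in 4 of 6 libraries and *Cxcl5* above *Tnf* in 3 of 6, so the order within these pairs was not larger than the spread.

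**Figure D1:**
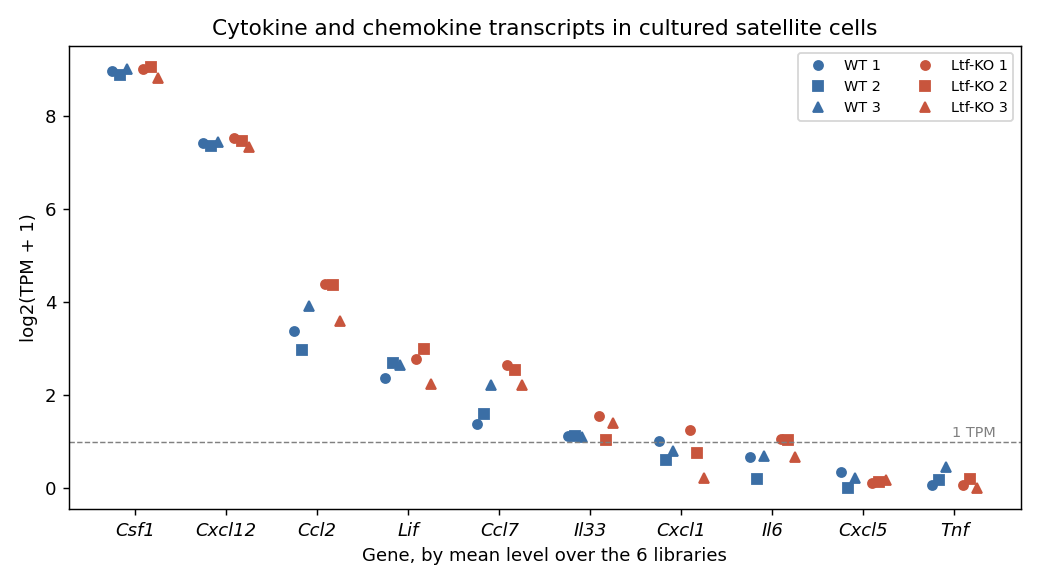
Level of each of the 10 transcripts, as log2(TPM + 1) on the vertical axis, with 1 point per library (blue, WT; red, *Ltf*-KO; the shape gives the replicate) and genes ordered by their mean. The dashed line marks 1 TPM; *Csf1* and *Cxcl12* stand apart above all others, and *Cxcl5* and *Tnf* lie near 0 in both genotypes.

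*Ltf*-KO was compared with WT by limma on log2(TPM + 1), for all 12956 genes whose mean reached 1 TPM. A fold change on this scale understates the change of a gene with low TPM. Over the whole table an unadjusted p under 0.05 was found for 490 genes (3.78%), with 260 (2.01%) higher and 230 (1.78%) lower in *Ltf*-KO SCs, so that 46.9% were lower, and 0 (0.0%) had a Benjamini-Hochberg adjusted p under 0.05 by limma. With quantile normalization 305 of 508 such genes (60.04%) were lower. Of the 10 cytokine and chemokine genes 6 passed the filter, and 1 of these 6, *Ccl7*, had an unadjusted p under 0.05. None had an adjusted p under 0.05 by limma, with 0.999 as the smallest. The 6 log2 fold changes had a median of 0.16, against 0.011 for all genes tested, and all 6 were above 0. The sign turned for *Csf1* without WT replicate 2 (-0.019), *Ltf*-KO replicate 1 (-0.0067) or *Ltf*-KO replicate 2 (-0.031), for *Cxcl12* without *Ltf*-KO replicate 1 (-0.015) and for *Lif* without *Ltf*-KO replicate 2 (-0.061). With no filter on low values 7 of the 10 genes were above 0, while *Cxcl1* (-0.071), *Cxcl5* (-0.053) and *Tnf* (-0.15) were below it. In bulk RNA, fewer cells of a type and less RNA per cell cannot be told apart.

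**Figure D2:**
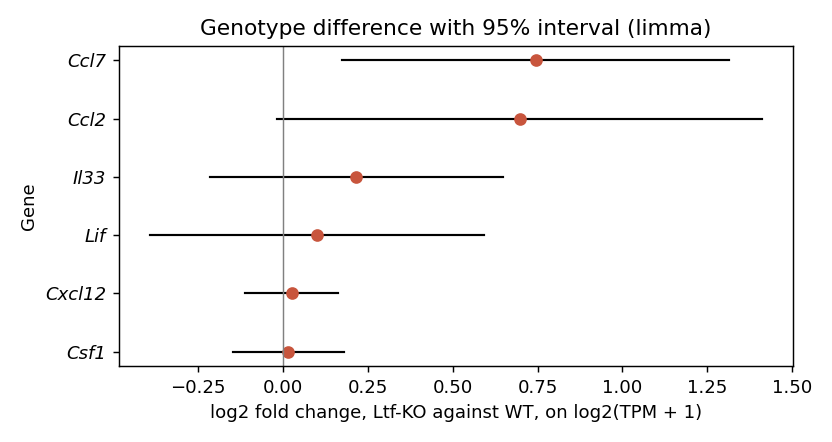
Log2 fold change of *Ltf*-KO against WT on the log2(TPM + 1) scale (horizontal axis) for the 6 genes tested, with points for the limma estimate and lines for its 95% confidence interval. The interval of *Ccl7* lies above 0 before adjustment, that of *Ccl2* reaches just below 0, and those of *Csf1* and *Cxcl12* are narrow and centred near 0.

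The monocyte chemokines *Ccl2* and *Ccl7* had the largest log2 differences between genotypes among the 6 genes tested. Their genes are neighbours on chromosome 11 (GRCm38, plus strand), *Ccl2* from 82035571 to 82037453 and *Ccl7* from 82045712 to 82047525. *Ccl7* had WT values of 1.61, 2.01 and 3.64 TPM, against 5.31, 4.83 and 3.66 TPM in *Ltf*-KO SCs. The genotypes did not overlap, although WT replicate 3 and *Ltf*-KO replicate 3 were nearly equal. Among all genes tested 8.46% did not overlap, 4.73% with the higher values in *Ltf*-KO SCs. The mean ± SD was 2.42 ± 1.08 TPM for WT against 4.60 ± 0.849 TPM for *Ltf*-KO (n = 3 each), a ratio of 1.90. On the log2 scale the difference was 0.74 with a standard error of 0.24 and a 95% confidence interval from 0.17 to 1.31 (limma, adjusted p = 0.999). The unadjusted call of *Ccl7* depended on which library was left out. It was lost without WT replicate 1 (log2 difference 0.57), WT replicate 2 (0.67), *Ltf*-KO replicate 1 (0.65) or *Ltf*-KO replicate 2 (0.71). It was kept without WT replicate 3 (0.99) or *Ltf*-KO replicate 3 (0.87).

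*Ccl2* had WT values of 9.42, 6.86 and 14.05 TPM, against 20.05, 19.55 and 11.16 TPM in *Ltf*-KO SCs. *Ltf*-KO replicates 1 and 2 were above every WT library, while *Ltf*-KO replicate 3 lay within the WT range. The mean ± SD was 10.1 ± 3.64 TPM for WT against 16.9 ± 5.00 TPM for *Ltf*-KO (n = 3 each), a ratio of 1.67. The log2 difference was 0.70 with a 95% confidence interval from -0.017 to 1.41 (limma, adjusted p = 0.999). Without WT replicate 3 it was 0.94 and without *Ltf*-KO replicate 3 it was 0.96, and in both cases *Ccl2* had an unadjusted p under 0.05. It was 0.68 without WT replicate 1, 0.47 without WT replicate 2, 0.56 without *Ltf*-KO replicate 1 and 0.58 without *Ltf*-KO replicate 2, with no such p in any of these. *Ccl2* varied more between replicates than most genes of its level. Its coefficient of variation was 36.1% in WT and 29.5% in *Ltf*-KO SCs, while the medians of the 6681 genes with means from 10 to 100 TPM were 5.58% and 5.85%. The *Ccl2* level was 3.05 to 5.85 times the *Ccl7* level, so the order of both neighbours was the same in every library. The other chemokine genes within 200 kb of them were near the floor, *Ccl11*, an eosinophil attractant, ranging from 0.07 to 0.98 TPM and *Ccl8* from 0 to 0.78 TPM. Both *Ccl12* and *Ccl1* were listed at 0 in all libraries. *Rpph1*, the RNA of ribonuclease P, and *Fbln2*, a matrix glycoprotein, had the profiles over the 6 libraries most like that of *Ccl2* among 8072 genes averaging 10 TPM or more. Their root-mean-square differences from it were 0.17 each on the log2 scale, where *Ccl2* itself deviated by 0.51 from its own mean.

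**Figure D3:**
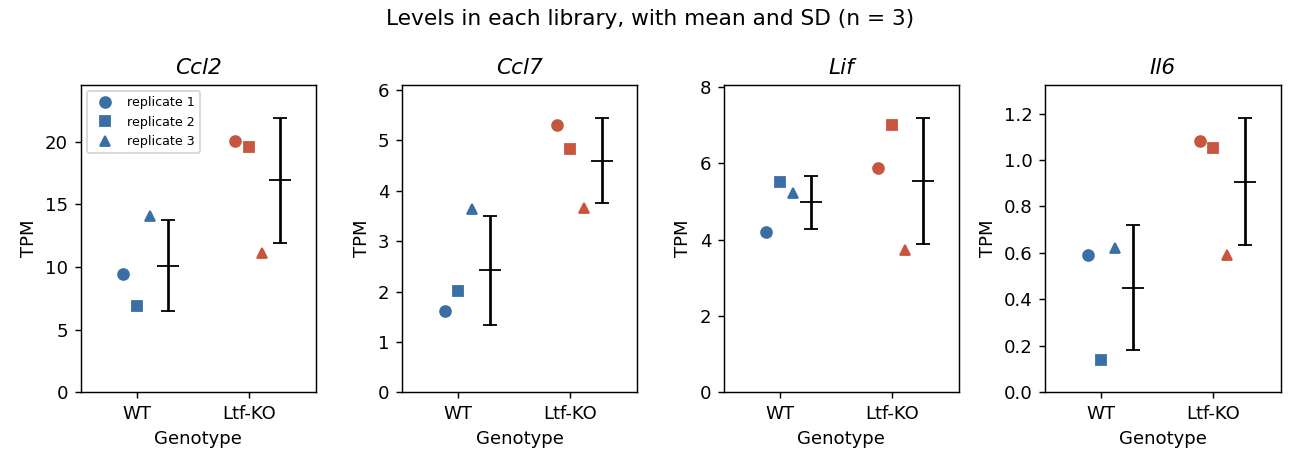
TPM of *Ccl2*, *Ccl7*, *Lif* and *Il6* (vertical axes, each from 0) in the 3 WT (blue) and 3 *Ltf*-KO libraries (red), with shapes for the replicate numbers and bars for the mean and SD. *Ltf*-KO replicate 3 is the lowest *Ltf*-KO library in all 4 genes, at 11.16 TPM for *Ccl2* and 3.66 TPM for *Ccl7*.

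Markers of other cell types were read beside these chemokines, since endothelial cells, fibroblasts and macrophages also make them. The stain before the sort is described as CD31, CD45, Sca1 and α7-integrin, while the gate names CD11b and CD34 but neither CD31 nor CD45. CD31 marks endothelial cells and CD45 leukocytes. *Pecam1*, which encodes CD31, ranged from 1.02 to 2.71 TPM after the culture. The 3 libraries with the most *Ccl2*, *Ltf*-KO replicates 1 and 2 and WT replicate 3, also had the highest sums over 10 endothelial markers, at 20.6, 21.2 and 22.8 TPM. In WT replicates 1 and 2 and *Ltf*-KO replicate 3 these sums were 13.1, 9.96 and 11.3 TPM. By genotype the endothelial sum ranged from 9.96 to 22.8 TPM in WT and from 11.3 to 21.2 TPM in *Ltf*-KO SCs, and 1 of 6 tested markers, *Egfl7*, had an unadjusted p under 0.05 (log2 fold change 0.66, limma adjusted p = 0.999). The 8 Schwann cell markers were likewise highest in these libraries, with sums of 36.9, 45.4 and 46.4 TPM in the same 3 and 25.7, 33.8 and 30.6 TPM in the others, and none of the 8 had an unadjusted p under 0.05. The highest gene of the endothelial list was *Egfl7*, at a mean of 3.53 TPM, and that of the Schwann cell list was *Ngfr*, at a mean of 13.3 TPM. *Dcn*, a matrix proteoglycan of fibroblasts, was at 5.71, 6.83 and 5.24 TPM in those 3 libraries and at 2.04, 2.89 and 2.82 TPM in the others. *Dcn* was chosen from the 12 fibroblast markers after its values were seen. The sums of these 12 did not separate the libraries in this way, at 148.5, 128 and 116 TPM in those 3 and 115, 122 and 113 TPM in the others. *Col3a1*, with a mean of 96.7 TPM, made up most of these sums. *Pdgfra*, *Lum*, *Col1a1* and *Cd55* of this list were, like *Dcn*, highest in those 3 libraries. *Ly6a*, *Cd34*, *Dpt*, *Pi16*, *Col3a1*, *Col15a1* and *Tcf21* were not. *Myog*, a factor of muscle differentiation, was at 360, 266 and 293 TPM in those 3 libraries and at 319, 410 and 508 TPM in the others, so its ranges overlapped. These 3 libraries were grouped by *Ccl2*. For *Ccl7* the 3 highest libraries were those of *Ltf*-KO, with replicate 3 at 3.66 TPM against 3.64 TPM in WT replicate 3. The part of other cells, or of the state of differentiation, in the *Ccl2* and *Ccl7* levels was not tested.

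The remaining marker lists showed little RNA of leukocytes. Of 12 macrophage markers 10 had means under 1 TPM, and the sums were 5.46 to 13.8 TPM in WT and 4.01 to 6.08 TPM in *Ltf*-KO SCs. *Ptprc*, which encodes the leukocyte antigen CD45, was at 0 to 0.16 TPM, *Adgre1*, which encodes F4/80, at 0 to 0.08 TPM, and the highest macrophage list gene was *Cd68* with a mean of 3.53 TPM. *Lyz2*, the lysozyme of myeloid cells, reached 7.22 TPM in WT replicate 1 and was at 0.38 to 2.31 TPM elsewhere. Neutrophil markers summed to 1.09 to 4.10 TPM, with *S100a9* the highest at a mean of 1.24 TPM, and 10 markers of T, B and mast cells to 0.45 to 0.86 TPM, with *Kit* the highest at a mean of 0.26 TPM. Of the summed fibroblast and fibro-adipogenic markers *Col3a1* alone had a mean of 96.7 TPM. The 10 smooth muscle and pericyte markers summed to 474 to 560 TPM in WT and to 528 to 656 TPM in *Ltf*-KO SCs. *Acta2*, at a mean of 492 TPM, made up most of these sums, and *Cspg4* followed at 35.0 TPM. Of the 10 markers 4 had means under 1 TPM, namely *Myh11* (0.42 TPM), *Cnn1* (0.957 TPM), *Rgs5* (0.252 TPM) and *Kcnj8* (0.067 TPM). In that list *Pdgfrb*, a receptor of mural cells and fibroblasts, was the 1 gene of 6 tested with an unadjusted p under 0.05 (log2 fold change 0.52, limma adjusted p = 0.999).

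**Figure D4:**
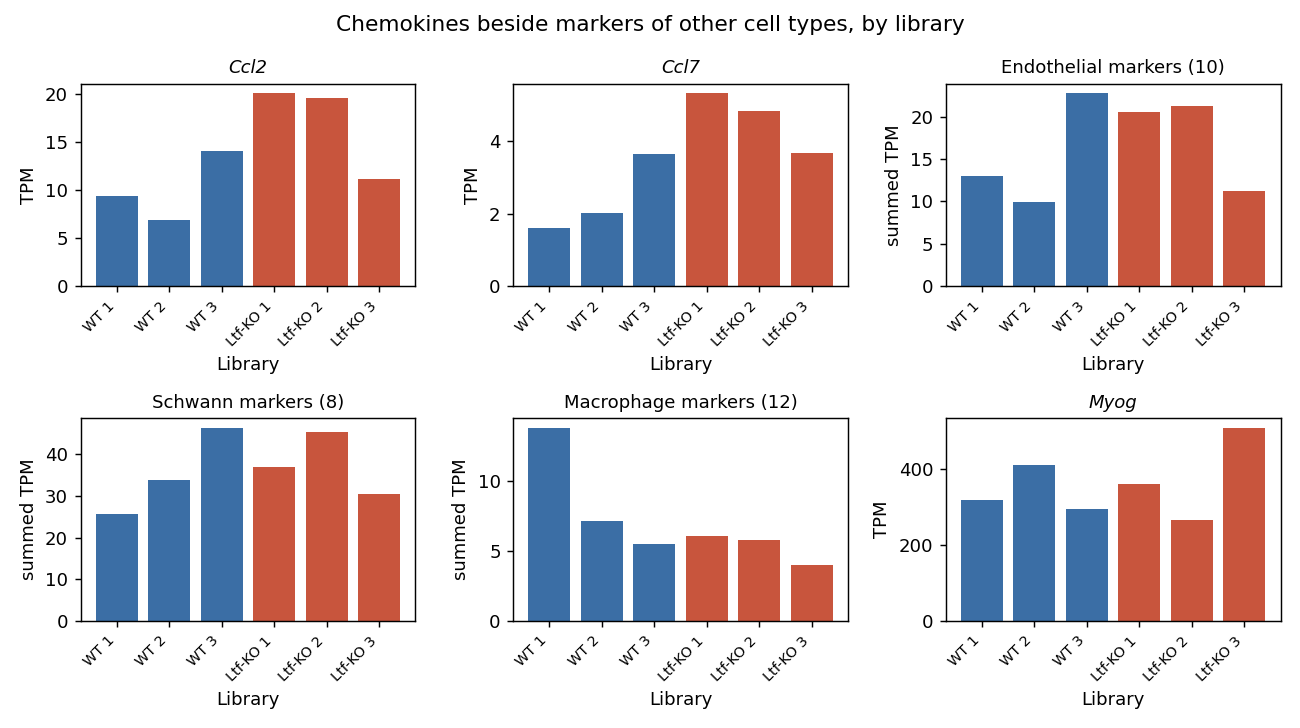
Bars give, for each of the 6 libraries (blue, WT; red, *Ltf*-KO), the TPM of *Ccl2*, *Ccl7* and *Myog* and the summed TPM of the endothelial, Schwann and macrophage marker lists, with every axis from 0. *Ccl2* and the endothelial and Schwann sums are highest in the same 3 libraries (WT 3, *Ltf*-KO 1 and *Ltf*-KO 2), whereas the macrophage sum is highest in WT 1.

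*Csf1* and *Cxcl12*, the most abundant of these signals, had log2 differences near 0 with narrow intervals. *Csf1* had WT values of 498, 469 and 513 TPM, against 515, 532 and 452 TPM in *Ltf*-KO SCs. Both the highest and the lowest value were thus in *Ltf*-KO libraries. The mean ± SD was 493 ± 22.3 TPM for WT against 499.6 ± 42.1 TPM for *Ltf*-KO (n = 3 each), with a log2 difference of 0.016 and a 95% confidence interval from -0.15 to 0.18 (limma, adjusted p = 0.999). *Cxcl12* had WT values of 171, 163 and 174 TPM, against 183, 176 and 160 TPM in *Ltf*-KO SCs, and the groups overlapped. Its mean ± SD was 169.5 ± 5.68 TPM for WT against 173 ± 11.7 TPM for *Ltf*-KO (n = 3 each), with a log2 difference of 0.027 and a 95% confidence interval from -0.11 to 0.16 (limma, adjusted p = 0.999). In both genes the spread was wider among *Ltf*-KO than among WT libraries (coefficients of variation of 8.43% against 4.53% for *Csf1* and 6.77% against 3.35% for *Cxcl12*), which was not tested. The ratio of *Csf1* to *Cxcl12* was 2.81 to 3.03 in the 6 libraries. *Snx9* and *Cstb* had the library profiles most like that of *Csf1*, with root-mean-square log2 differences of 0.014 each, and *Glb1* and *F2r* those most like *Cxcl12*, with 0.010 and 0.013. These are descriptions over 6 libraries in which neither gene deviated by more than 0.082 (root mean square, log2) from its own mean.

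The gp130 cytokines *Lif* and *Il6* were at low levels. *Lif*, which promotes the growth of myoblasts, lies on chromosome 11 (GRCm38, 4257557 to 4272514) and had WT values of 4.19, 5.51 and 5.23 TPM, against 5.87, 6.99 and 3.73 TPM in *Ltf*-KO SCs. *Ltf*-KO replicates 1 and 2 were the highest of all libraries and replicate 3 the lowest, so the groups overlapped. The log2 difference was 0.10 with a 95% confidence interval from -0.39 to 0.59 (limma, adjusted p = 0.999). *Il6*, which activated muscle cells and macrophages release, lies on chromosome 5 from 30013114 to 30019981 and had WT values of 0.59, 0.14 and 0.62 TPM, against 1.08, 1.05 and 0.59 TPM in *Ltf*-KO SCs. Here too *Ltf*-KO replicates 1 and 2 were above all WT libraries and replicate 3 was not. With a mean of 0.678 TPM *Il6* was below the filter and was not tested in the main comparison, and with no filter its log2 difference was 0.40 (limma, adjusted p = 0.946).

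*Il33*, on chromosome 19 from 29925114 to 29960718, had WT values of 1.19, 1.17 and 1.13 TPM, against 1.95, 1.04 and 1.64 TPM in *Ltf*-KO SCs. The WT values were close together, and the *Ltf*-KO values lay on both sides of them. The log2 difference was 0.22 with a 95% confidence interval from -0.21 to 0.65 (limma, adjusted p = 0.999), and without *Ltf*-KO replicate 2, the lowest library, it was 0.37 and had an unadjusted p under 0.05 (limma, adjusted p = 0.980). Without *Ltf*-KO replicate 1, the highest library, it was 0.10. *Tnf*, on chromosome 17 from 35199381 to 35202007, had WT values of 0.05, 0.13 and 0.37 TPM, against 0.05, 0.14 and 0 TPM in *Ltf*-KO SCs. *Tnf* was not tested in the main comparison, and with no filter its log2 difference was -0.15 (limma, adjusted p = 0.946). Both of its receptors were present at higher levels, *Tnfrsf1a* at a mean of 40.4 TPM and *Tnfrsf1b* at 12.8 TPM.

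The neutrophil chemokines *Cxcl1* and *Cxcl5* were near the floor. *Cxcl1*, on chromosome 5 (GRCm38, 90891241 to 90893115), had WT values of 1.03, 0.52 and 0.75 TPM, against 1.37, 0.68 and 0.17 TPM in *Ltf*-KO SCs, which held both the highest and the lowest value. *Cxcl5*, on the same chromosome from 90759360 to 90761624, had WT values of 0.28, 0 and 0.17 TPM, against 0.08, 0.10 and 0.13 TPM in *Ltf*-KO SCs. Neither was tested in the main comparison, and with no filter their log2 differences were -0.071 and -0.053 (limma, adjusted p = 0.987 and adjusted p = 0.958). The other chemokine genes of this cluster gave as little, with *Cxcl2* at 0 to 0.37 TPM, *Ppbp* at 0.07 to 0.20 TPM, and *Cxcl3*, *Cxcl15* and *Pf4* listed at 0 in all libraries.

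Receptors of these signals ranged from abundant to listed at 0. Of 18 receptor genes 8 passed the filter, led by *Ackr3* at a mean of 77.9 TPM and *Cxcr4* at 68.3 TPM, the pair of receptors that bind CXCL12. *Il6st*, which encodes gp130, was at 27.7 to 29.8 TPM, while its partners *Lifr* and *Il6ra* had means of 3.06 and 0.743 TPM. The IL-33 receptor *Il1rl1* had WT values of 2.97, 2.05 and 5.13 TPM, against 4.57, 6.53 and 2.58 TPM in *Ltf*-KO SCs, with the same 3 libraries high as for *Ccl2*. In contrast, the receptors through which leukocytes read CCL2, CXCL1, CXCL5 and CSF1 were at or near 0. *Ccr2* and *Cxcr1* were listed at 0 in all libraries, *Cxcr2* was at 0.06 to 0.14 TPM, and *Csf1r* was at 0.39 TPM in WT replicate 1 and at 0.05 to 0.09 TPM elsewhere. Among the 8 tested receptors 0 had an unadjusted p under 0.05 in limma in either direction, and their median log2 fold change was 0.056.

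**Figure D5:**
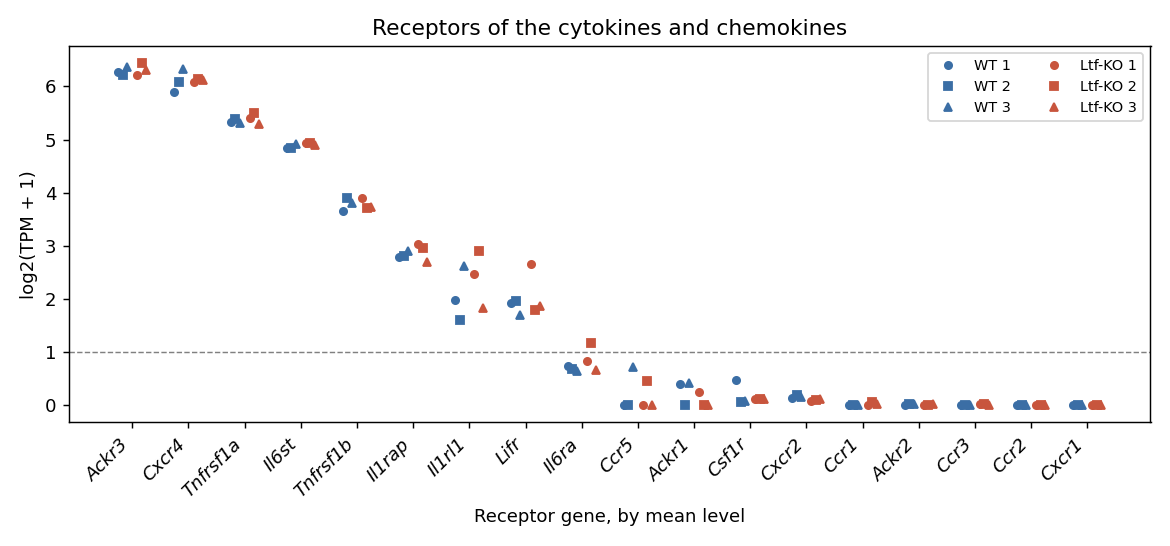
Level of 18 receptor genes as log2(TPM + 1) (vertical axis), 1 point per library (blue, WT; red, *Ltf*-KO; the shape gives the replicate), ordered by mean. *Ackr3* and *Cxcr4* are the highest, and *Ccr2*, *Cxcr1*, *Cxcr2* and *Csf1r* lie at or near 0; the dashed line marks 1 TPM.

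Other genes of these pathways were read from 7 lists, the receptors included, which held 134 different genes, of which 72 were tested. Of these 72 genes 0 had an unadjusted and 0 an adjusted p under 0.05 by limma, against 3.78% and 0.0% of all genes tested, and in 0 did the genotypes fail to overlap, against 8.46% of all genes tested. The lowest p was that of *Rhbdf1*, a regulator of ADAM17 (log2 fold change 0.11, limma adjusted p = 0.999). Of 29 other chemokines only 3 passed the filter, *Ccl25* (7.74 TPM), *Cx3cl1* (6.08 TPM) and *Cxcl14* (1.38 TPM), with a median log2 fold change of -0.066. Of 30 other cytokines 9 passed, with *Mif*, an abundant cytokine with tautomerase activity, as the highest at 1457 TPM. *Clcf1*, a gp130 cytokine, was at 38.4 TPM, above *Lif* and *Il6*, and *Il34*, the other ligand of CSF1R, at 20.3 TPM. The median log2 fold change of these 9 genes was 0.0085.

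Among 22 NF-κB factors and targets 20 were tested, with *Nfkb1* (75.2 TPM) and *Rela* (43.4 TPM), which encode the p50 and p65 subunits, at the top and a median log2 fold change of 0.024. *Ptgs2*, the inducible prostaglandin synthase, had WT values of 18.2, 16.9 and 23.3 TPM, against 28.8, 28.7 and 16.5 TPM in *Ltf*-KO SCs, the same libraries being high as for *Ccl2* (log2 fold change 0.30, limma adjusted p = 0.999). It was chosen after its values were seen. Without *Ltf*-KO replicate 3 an unadjusted p under 0.05 was found in this list for *Ptgs2* (log2 fold change 0.55), *Tnfaip2* (0.25) and *Nfkbia* (-0.19). Each had a limma adjusted p of 0.984, and 611 of all 12956 genes tested had such an unadjusted p without this library. Without *Ltf*-KO replicate 2 it was found for *Birc3* (-0.53, limma adjusted p = 0.980), beside 540 of the 12956 genes. Of 17 genes of gp130, JAK and STAT3 signaling 15 were tested, with a median of 0.051. *Ptpn11*, which encodes the phosphatase SHP2, and *Socs2*, a feedback inhibitor, were the highest at 63.7 and 54.1 TPM, and *Socs3*, the feedback inhibitor that STAT3 induces, was at 1.98 to 3.07 TPM. All 11 genes of cytokine mRNA decay were tested, led by *Hnrnpd* (344 TPM) and *Zfp36l2* (138 TPM), which bind AU-rich elements, with a median of 0.030. Of 7 genes of cytokine shedding and clearance 6 were tested, with the proteases *Furin* (71.7 TPM) and *Adam10* (42.5 TPM) at the top and a median of 0.043.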

How the data were processed

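SCs of 3 WT and 3 *Ltf*-KO libraries were grown for 4 days, and total RNA was sequenced by a company under its standard protocol. The authors deposited TPM values of 55416 genes with 2 decimals. The submitters' processing notes name the build GRCm39, and the aligner, the counting tool and the annotation are not given in the sources used here. The unit was read from the column sums. TPM keeps no read depth, so no counting interval could be given, and precision was judged from the replicates. Groups and replicate numbers come from the sample labels, and 0 columns of values were left without a sample. Gene positions were looked up by identifier in GENCODE M21 (GRCm38) and promoters in RefSeq (GRCm38.p6).

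Genes averaging 1 TPM or more (12956, or 23.4%) were compared between genotypes with limma 3.58.1 in R 4.3.3 (lmFit, then eBayes with a mean-variance trend) after the transform log2(TPM + 1). Tests were two-sided, the Benjamini-Hochberg adjustment ran over all these genes, and the threshold was 0.05. The fit was tested on simulated data. The 10 genes, the lists and the tests were chosen with earlier results of these data known. Named genes were the 10, the 2 highest of each pathway list and any of it at an unadjusted p under 0.05, the highest of each marker list, the 2 genes most like each of the 10 that averages 10 TPM or more, and *Ltf*. Other genes were named after their values were seen, and 1 gene that the rule names is not reported here. Alternatives were a pseudocount of 0.1, no filter, a minimum mean of 10 TPM, quantile normalization, median-of-ratios scaling, no trend, the replicate block and each library left out in turn.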

Additional observations from a re-analysis of the deposited data

How the results depend on the processing

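All of these alternatives were set together with the main comparison. Under each of them 0 of the 10 genes had an adjusted p under 0.05 by limma. The number at an unadjusted p under 0.05 was 1 and ranged from 0 to 2 with 1 library left out, and under a minimum mean of 10 TPM the gene called was *Ccl2*, as *Ccl7* was not tested. Log2 fold changes with 1 library left out ranged from 0.47 to 0.96 for *Ccl2*, from 0.57 to 0.99 for *Ccl7* and from 0.10 to 0.37 for *Il33*. They crossed 0 for *Csf1* (-0.031 to 0.087), *Cxcl12* (-0.015 to 0.081) and *Lif* (-0.061 to 0.32). For all genes the number at an adjusted p under 0.05 was 0 and ranged from 0 to 6 with 1 library left out, and the number at an unadjusted p was 490, 890 with no filter and 281 under a minimum mean of 10 TPM, settings that change how many genes enter. For the pathway lists the number at an unadjusted p was 0, 2 with no filter (*Ccl5* and *Il15*, both lower in *Ltf*-KO) and 0 to 4 with 1 library left out. The causes were not tested.

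The labels give both genotypes replicate numbers 1 to 3. Libraries with the same number did not deviate together from the means of their groups (r = -0.041, -0.058 and -0.088 across genes), and nothing else ties them. With the replicate block 380 genes had an unadjusted p under 0.05, *Ccl7* among them, and the number of the 10 genes called stayed at 1.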

Other observations

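The 10 genes can be placed among all genes that the deposited table annotates as secreted signals, a view added after the data were seen. The term cytokine activity was attached to 226 genes, of which 43 had a mean of at least 1 TPM and 91 were listed at 0 in every library. *Csf1* was the 4th of them by level, after *Spp1* (6892 TPM), the matrix cytokine osteopontin, *Mif* (1457 TPM) and *Timp1* (539 TPM), an inhibitor of matrix proteases. *Grem1*, an antagonist of bone morphogenetic proteins, was at 83.05 TPM and *Tgfb1* at 43.8 TPM. Of the 43 genes 2 had an unadjusted p under 0.05 by limma (4.65%, against 3.78% of all genes tested) and 0 an adjusted p under 0.05. These were *Fgf2*, higher in *Ltf*-KO SCs, and *Bmp4*, lower in them.

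The term chemokine activity was attached to 55 genes, of which 8 had a mean of at least 1 TPM and 22 were listed at 0 in every library. *Cxcl12* was the highest, followed by *Cklf* (18.5 TPM), *Ccl2* (13.5 TPM) and *Ccl27a* (10.1 TPM). *Ccl7* was the 7th by level and the 1 gene of these 8 with an unadjusted p under 0.05 by limma (12.5%, against 3.78% of all genes tested). An adjusted p under 0.05 was found for 0 of them. *Ccl7* is among the 10 genes described above, so this is the same call as given there.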
